A study of Mus musculus with 19 samples.

Results

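The genes described here are 46 markers and effectors of DNA replication and mitosis, measured in mouse heart RNA, 17 of them tied to S phase and 29 to mitosis. They were taken by gene symbol from a table of 56066 genes, and each symbol matched 1 row. All 46 passed the filter on low values (1 TPM or more in 3 or more of 18 libraries; TPM are transcript levels scaled by length and to the same total in each library) that left 14812 genes to test. A cell that divides first loads the MCM helicase on its replication origins with the help of Cdc6 and Cdt1, and in S phase makes deoxynucleotides and copies its DNA. It then enters mitosis under the kinase Cdk1 and its cyclins, separates its chromosomes on a spindle and leaves mitosis when the anaphase-promoting complex (APC/C) marks cyclins for destruction. Cardiomyocytes are known to leave the cell cycle soon after birth, after a last round in which many of them copy DNA or divide nuclei without dividing the cell, while endothelial cells and fibroblasts of the growing heart go on dividing.

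Hearts were wild type (WT) at postnatal day 1 (P1, 3 libraries), P7 (5) and P21 (4), or carried a conditional knockout (cKO) of PDK1 at P7 (3) and P21 (3). The labels name neither the promoter that drives Cre nor the gene meant by PDK1, and the series' design text has P0 where the labels have P1, which were followed. In the order used below, libraries were numbered 1, 2 and 3 in P1 WT, 1, 3, 72, 76 and 77 in P7 WT, 69, 75 and 82 in P7 cKO, 2, 3, 57 and 60 in P21 WT, and 55, 59 and 64 in P21 cKO. A further P21 library, 63, had a cKO label and a title without the KO of the other cKO titles, and entered no group.

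TPM keep no read depth, so the depth behind each value was unknown. From 12422 to 13797 genes were at 1 TPM or more in a library. Whether the libraries are of separate animals is not in the labels, and p-values cover only the spread from library to library. Pdpk1, one gene whose product is called PDK1, ranged from 4.95 to 5.55 TPM in P21 cKO and from 6.17 to 7.65 TPM in P21 WT. At P7 it ranged from 7.95 to 8.09 TPM in cKO and from 7.96 to 11.9 TPM in WT. In P7 WT 72, 76 and 77, of the same title style as the cKO libraries, Pdpk1 was at 8.09, 7.96 and 9.32 TPM. Pdk1, the other, ranged from 31.6 to 37.7 TPM in P21 cKO and from 24.3 to 29.4 TPM in P21 WT, and from 36.9 to 40.2 TPM in P7 cKO and from 36.1 to 44.7 TPM in P7 WT. The 6 cardiomyocyte markers (Myh6, Myh7, Tnnt2, Actc1, Ryr2 and Tnni3) summed to between 31150 and 41774 TPM per library in all groups, and none was at 0. WT titles came in 2 styles, a letter code (H in all P1 titles, and, for libraries 1, 2 and 3 of the later ages, heart at P7 and B6 at P21) or a plain number, so title style was a term of the model. All cKO titles were of the plain-number style. The term treats the letter codes as 1 style, but each code occurs at 1 age only. It therefore cannot separate P1 from its code H.

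Promoters of 39 of the 46 genes were matched by symbol to RefSeq promoters (GRCm38.p6), 15 of S phase and 24 of mitosis; Foxm1, Tpx2, Aurkb, Ccne2, Ccna2, Kif20a and Mcm4 had no match. The sequences below are the 250 bases before the start used for those promoters, shown so that the motifs can be read in promoters of both lists. The gene bounds used below for exon overlaps (GENCODE M21) place some starts elsewhere. By those bounds the last part of each stretch but that of Mcm6 lies inside the gene. Capitals mark the CCAAT box (CCAAT), the cell cycle homology region (TTTGAA or TTCGAA) and the E2F motif (TTCCCGC or TTGGCGC), each searched on both strands, and neighbouring matches can overlap. Pcna, Rrm2, Cenpa and Cdk1 had the highest mean levels of their list among genes with such a motif there. Mcm6 and Ube2c were added after their values were seen, as the next such genes that changed between P1 and P7 and held an E2F motif, or both the CCAAT box and the homology region.
Pcna (chr2:132253181-132253430, minus strand): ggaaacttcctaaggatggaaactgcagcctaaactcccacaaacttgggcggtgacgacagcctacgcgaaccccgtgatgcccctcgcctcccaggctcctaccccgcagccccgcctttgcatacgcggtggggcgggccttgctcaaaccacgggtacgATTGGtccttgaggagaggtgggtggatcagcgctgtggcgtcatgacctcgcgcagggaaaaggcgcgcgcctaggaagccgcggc
Rrm2 (chr12:24708004-24708253, plus strand): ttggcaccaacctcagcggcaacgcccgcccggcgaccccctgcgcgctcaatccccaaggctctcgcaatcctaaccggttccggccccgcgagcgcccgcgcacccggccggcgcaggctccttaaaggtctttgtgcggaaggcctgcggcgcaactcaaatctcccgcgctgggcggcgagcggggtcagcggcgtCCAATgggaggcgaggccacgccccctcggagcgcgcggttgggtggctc
Mcm6 (chr1:128359706-128359955, minus strand): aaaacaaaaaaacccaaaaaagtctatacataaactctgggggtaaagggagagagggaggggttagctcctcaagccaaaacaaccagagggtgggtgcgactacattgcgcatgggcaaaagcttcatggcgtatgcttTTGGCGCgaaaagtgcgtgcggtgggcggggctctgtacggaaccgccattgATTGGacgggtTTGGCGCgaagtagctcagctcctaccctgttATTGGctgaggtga
Cenpa (chr5:30666636-30666885, plus strand): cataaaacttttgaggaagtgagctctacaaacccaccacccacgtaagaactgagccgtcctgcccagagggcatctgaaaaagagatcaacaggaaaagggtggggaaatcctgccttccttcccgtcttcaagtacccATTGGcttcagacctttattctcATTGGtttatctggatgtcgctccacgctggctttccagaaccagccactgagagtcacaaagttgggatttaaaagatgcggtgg
Cdk1 (chr10:69352913-69353162, minus strand): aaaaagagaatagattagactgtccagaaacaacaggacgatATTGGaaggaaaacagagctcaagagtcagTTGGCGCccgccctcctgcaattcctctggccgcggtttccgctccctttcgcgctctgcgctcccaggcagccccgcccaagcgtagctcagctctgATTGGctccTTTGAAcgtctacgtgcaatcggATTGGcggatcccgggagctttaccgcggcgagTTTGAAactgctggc
Ube2c (chr2:164769679-164769928, plus strand): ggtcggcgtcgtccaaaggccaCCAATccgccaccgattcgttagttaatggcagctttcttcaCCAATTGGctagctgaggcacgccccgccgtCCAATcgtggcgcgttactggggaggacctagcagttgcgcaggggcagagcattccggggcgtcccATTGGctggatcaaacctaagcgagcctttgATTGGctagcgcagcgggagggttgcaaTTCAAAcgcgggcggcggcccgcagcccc

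In windows of 300 bases (250 before and 50 after the start), the homology region was found in 17 of 24 mitotic promoters (70.8%) and in 3 of 15 S phase promoters (20.0%), against 21.7% of 27025 promoters. The E2F motif was found in 7 of 15 S phase promoters (46.7%) and 4 of 24 mitotic ones (16.7%), against 7.79% of all. The CCAAT box was found in 9 of 15 (60%) and 19 of 24 (79.2%), against 41.1% of all. Mcm3, Mcm5, Mcm6, Mcm7, Cdc6, Cdt1 and Rrm1 were the S phase genes with the E2F motif, and Mcm2, Mcm7 and Cdc45 those with the homology region. A match describes letters in this window and is no evidence of binding.

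Summed over the 29 mitotic genes, the level was 1300 ± 55.1 TPM in P1 WT (SD, n = 3), 805 ± 117 in P7 WT (n = 5) and 52.0 ± 4.52 in P21 WT (n = 4). Summed over the 17 S phase genes, it was 346 ± 40.6 TPM at P1, 426 ± 44.7 at P7 and 65.4 ± 8.19 at P21. The mitotic sum was 3.79 ± 0.53 times the S phase sum at P1, 1.89 ± 0.18 times at P7 and 0.80 ± 0.06 times at P21, with no overlap between the libraries of the 3 ages. Single genes carried much of the P21 sums: Cenpa held 24.5 of the 52.0 TPM and Pcna 26.5 of the 65.4 TPM. Without Cenpa the ratios were 3.37 ± 0.46, 1.69 ± 0.16 and 0.42 ± 0.05, and without Cenpa and Pcna 4.20 ± 0.52, 2.16 ± 0.20 and 0.71 ± 0.07, again with no overlap between ages; these were computed after seeing the data. In heart RNA, fewer dividing cells and less of these RNAs in each cell cannot be told apart.

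**Figure D1:**
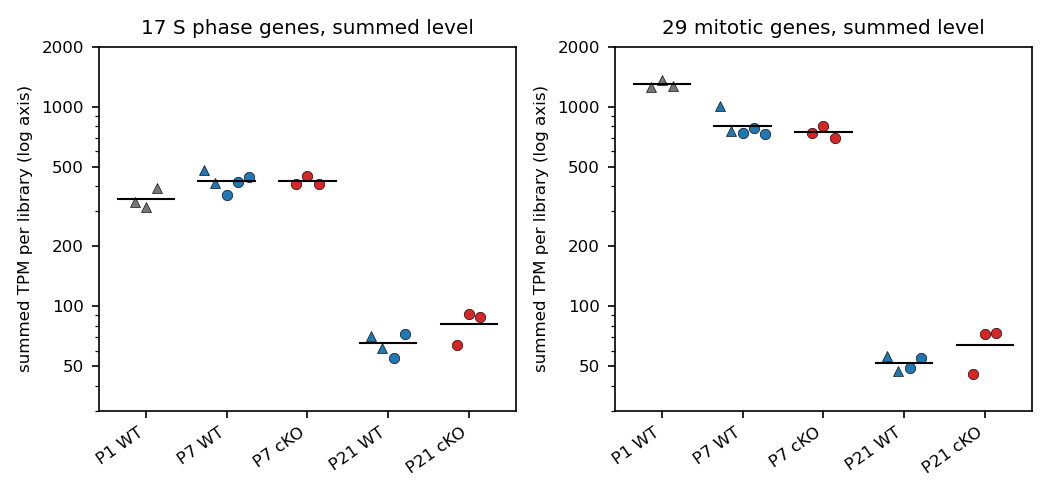
Summed TPM per library (log axis) of the 17 S phase genes (left) and the 29 mitotic genes (right) by age and genotype. Triangles are libraries with letter-coded titles, circles those with plain numbers, and bars are means; the mitotic sums at P1 (1256 to 1362 TPM) lie above all P7 sums, while S phase sums at P1 and P7 overlap, and all P21 sums lie far below.

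Between P1 and P7 in WT hearts the S phase genes that passed the test were all higher at P7 and the mitotic genes that passed were all lower. Of 17 S phase genes 10 were higher at P7 and 0 lower, where 13.8% of all genes tested were higher, and of 29 mitotic genes 15 were lower and 0 higher, where 14.7% of all genes were lower (limma, adjusted p under 0.05). The median log2 difference was 0.49 over S phase genes, -0.53 over mitotic genes and 0.00 over all genes. All differences are of log2(TPM + 1), which shrinks fold changes of genes with low levels, and are adjusted for title style, which the percentages of group means given below are not. In 7 S phase genes all P7 libraries lay above all P1 libraries (13.8% of all genes), and in 18 mitotic genes they lay below (17.1% of all genes). Among letter-coded titles alone, with all P1 libraries (code H) and 2 of P7 (code heart), 6 S phase genes were higher and 10 mitotic genes lower. In that fit 2428 of 13882 genes passed in either direction. There too age and code cannot be told apart. Without P1 WT 2 or without P7 WT 1, 5 S phase genes passed, and with a pseudocount of 0.1 instead of 1, 7 mitotic genes were lower. Over all genes 3103 of 14698, 3369 of 14746 and 3980 of 14812 passed in either direction, in that order.

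Of the helicase and licensing genes 7 of 9 rose. Cdc6, which loads the MCM helicase on origins, stood at 1.04, 1.1 and 1.57 TPM in P1 and 3.85, 2.54, 2.89, 2.87 and 3.8 TPM in P7 (log2 difference 0.90 ± 0.16, SE; adjusted p = 0.000747, limma). The 3 P1 libraries lay below all 5 of P7. Mcm2, a helicase subunit, measured 13.2, 11.01 and 15.3 TPM in P1 and 28.7, 24.1, 22.96, 24.5 and 27.6 TPM in P7, a log2 difference of 0.99 ± 0.19 (SE; adjusted p = 0.00123, limma). Mcm3, another subunit, was at 15.8, 16.6 and 21.2 TPM in P1 and 31.9, 24.7, 23.9, 30.7 and 38.3 TPM in P7 (log2 difference 0.66 ± 0.23, SE; adjusted p = 0.0462, limma). No library of either gene overlapped between ages, but Mcm3 did not pass in 12 of 18 fits that each dropped 1 library, and its log2 difference over those 18 fits ranged from 0.57 to 0.78. Mcm4, Mcm5, Mcm6 and Cdc45, which helps to start the helicase, rose by 0.82, 0.85, 0.75 and 0.49, and all but Cdc45 had no overlap between ages. Cdt1, Cdc6's partner, had a difference of 0.36 and did not pass (adjusted p = 0.138, limma). Mcm7, the helicase subunit with the highest level, stood at 41.1, 39.4 and 34.7 TPM in P1 and 38.9, 38.5, 26.4, 29.9 and 33.3 TPM in P7, a log2 difference of -0.05 ± 0.13 (SE; adjusted p = 0.816, limma). Its libraries overlapped, and unlike those of the other 5 subunits its mean at P7 was 87.0% of that at P1.

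Pcna, the sliding clamp that holds DNA polymerase on DNA, measured 62.9, 60.2 and 83.5 TPM in P1 and 104, 90.1, 79.2, 91.9 and 96.8 TPM in P7 (log2 difference 0.47 ± 0.13, SE; adjusted p = 0.0153, limma). P1 WT 3 overlapped the lowest P7 library. Of the nucleotide supply genes 0 of 4 passed. Rrm2, the small subunit of ribonucleotide reductase, was at 49.5, 50.6 and 55.2 TPM in P1 and 56.5, 51.7, 35.3, 45.4 and 45.2 TPM in P7, a log2 difference of -0.08 ± 0.14 (SE; adjusted p = 0.713, limma). Rrm1, its large subunit, stood at 34.7, 34.3 and 40.2 TPM in P1 and 38.7, 33.8, 31.95, 34 and 36.8 TPM in P7 (log2 difference -0.07 ± 0.15, SE; adjusted p = 0.764, limma). In both genes the libraries of the 2 ages overlapped. Tk1, thymidine kinase, and Tyms, thymidylate synthase, had differences of 0.01 and 0.34, neither past the threshold. Of the G1/S regulators, Ccne2, a cyclin of the G1/S transition, measured 2.79, 2.59 and 4.69 TPM in P1 and 8.29, 7.28, 4.51, 6.99 and 6.21 TPM in P7, a log2 difference of 0.95 ± 0.18 (SE; adjusted p = 0.00119, limma). E2f1, a transcription factor of S phase genes, was at 6.17, 4.72 and 7.7 TPM in P1 and 9.15, 8.77, 8.21, 8.77 and 9.88 TPM in P7 (log2 difference 0.49 ± 0.15, SE; adjusted p = 0.0209, limma). All P7 values of E2f1 lay above P1, and 1 Ccne2 library of P1 reached above the lowest of P7. Ccne1 had a difference of 0.24 and did not pass. As group means, the S phase genes stood at P7 at a median of 138.8% of their P1 level, from 87.0% (Mcm7) to 258% (Cdc6), with 13 of 17 above 100%.

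**Figure D2:**
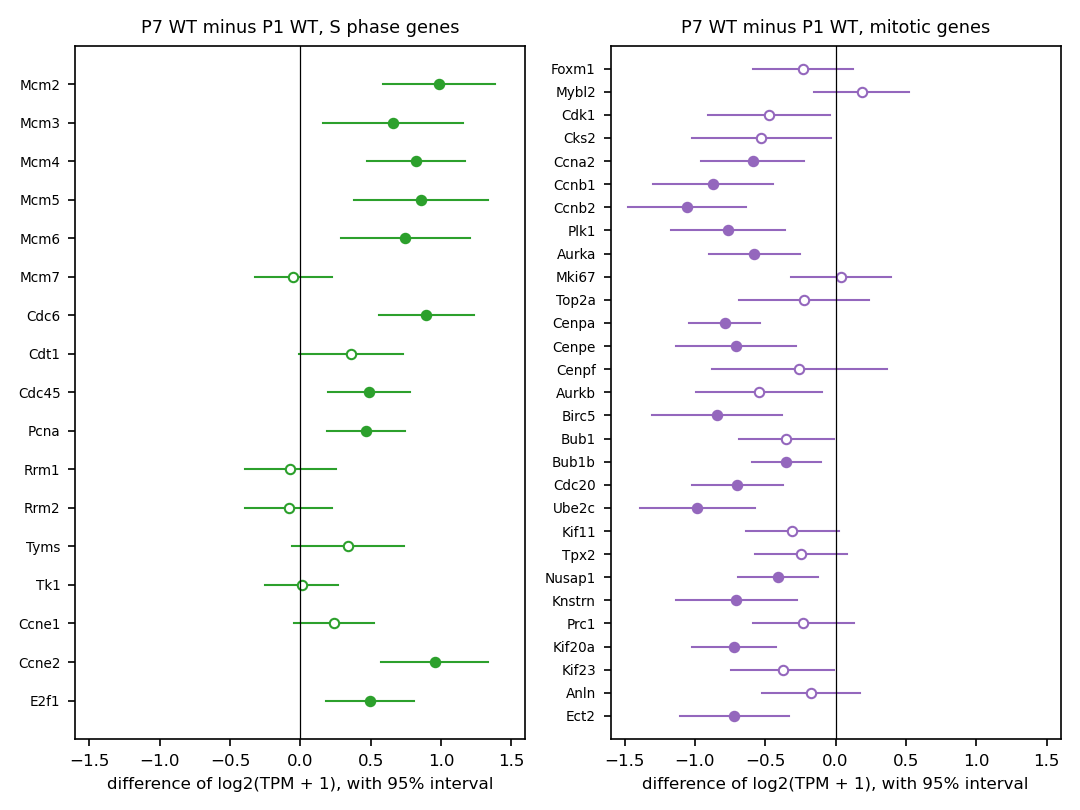
Difference of log2(TPM + 1) between P7 WT and P1 WT for each S phase gene (left, green) and mitotic gene (right, purple), ordered by role, with 95% intervals; filled points passed at an adjusted p under 0.05. Filled S phase points lie between 0.47 and 0.99, and filled mitotic points between -1.06 and -0.35.

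Of the mitotic genes, the CDK, cyclin and entry kinase genes fell in 5 of 7. Ccnb2, cyclin B2, which activates Cdk1, stood at 61.9, 59.6 and 56.7 TPM in P1 and 35.1, 25.5, 27.1, 29.7 and 26.5 TPM in P7, a log2 difference of -1.06 ± 0.20 (SE; adjusted p = 0.00106, limma). P7 libraries held less than all P1 libraries. Ccnb1, Plk1, Ccna2 and Aurka fell by 0.87, 0.77, 0.59 and 0.58 on the log2 scale, again with no overlap. Cdk1, the kinase of mitotic entry, measured 106, 124 and 125 TPM in P1 and 94.7, 75.3, 82.1, 73.8 and 76.6 TPM in P7 (log2 difference -0.47 ± 0.20, SE; adjusted p = 0.0957, limma). Cks2, a small CDK-binding protein, was at 94, 94.7 and 103 TPM in P1 and 82.4, 53.5, 51.6, 55.6 and 54.6 TPM in P7, a log2 difference of -0.53 ± 0.23 (SE; adjusted p = 0.103, limma). Neither passed, although all P7 libraries of both lay below P1.

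Cenpa, the histone H3 variant of centromeres, stood at 134, 156 and 141 TPM in P1 and 95.6, 72.5, 92.2, 93.3 and 75.1 TPM in P7 (log2 difference -0.79 ± 0.12, SE; adjusted p = 0.000216, limma). It had the smallest p of the 46 genes, and its libraries did not overlap. Birc5 and Cenpe, survivin of the chromosomal passenger complex and a kinetochore motor, fell by 0.84 and 0.71. Top2a, which untangles DNA, measured 62.4, 61.8 and 69.1 TPM in P1 and 63.7, 47.9, 42.5, 52.3 and 46.3 TPM in P7, a log2 difference of -0.22 ± 0.22 (SE; adjusted p = 0.476, limma). Mki67, the Ki-67 antigen of cycling cells, Top2a, Cenpf and Aurkb did not pass; the Mki67 difference was 0.04, with a 95% interval from -0.32 to 0.39. Mki67 ranged from 20.5 to 23.3 TPM at P1 and from 17.65 to 25.98 TPM at P7, a range that holds all P1 values.

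Ube2c, the E2 enzyme of the APC/C, was at 134, 149 and 146 TPM in P1 and 88.7, 62.8, 70.7, 63.9 and 64.4 TPM in P7 (log2 difference -0.98 ± 0.19, SE; adjusted p = 0.00153, limma). Cdc20, its activator, stood at 58.5, 69.8 and 61.5 TPM in P1 and 45.1, 32.5, 32.04, 32.4 and 32.4 TPM in P7, a log2 difference of -0.70 ± 0.15 (SE; adjusted p = 0.00338, limma). The P7 libraries of both lay below those of P1. Bub1b, of the spindle checkpoint, fell by 0.35 (adjusted p = 0.0352, limma), and Bub1 had a difference of -0.35 and did not pass. Of the spindle genes, Knstrn, a spindle and kinetochore protein, measured 68.1, 63.4 and 62.5 TPM in P1 and 46.5, 37.2, 31.5, 31.8 and 33.5 TPM in P7 (log2 difference -0.71 ± 0.20, SE; adjusted p = 0.0167, limma). Tpx2, a spindle assembly factor, was at 22.1, 22.96 and 21.3 TPM in P1 and 20.99, 16.9, 16.5, 17.6 and 15.2 TPM in P7, a log2 difference of -0.25 ± 0.15 (SE; adjusted p = 0.25, limma). Knstrn had no overlap between ages, nor had Tpx2. Nusap1 fell by 0.41 and Kif11, the mitotic kinesin Eg5, had a difference of -0.31 and did not pass.

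Cytokinesis genes fell in 2 of 5. Kif20a, a kinesin of the cleaving cell, stood at 36.9, 35.7 and 26.8 TPM in P1 and 23.4, 18.3, 14.2, 17.04 and 15.1 TPM in P7 (log2 difference -0.72 ± 0.14, SE; adjusted p = 0.00152, limma). Prc1, which bundles the midzone spindle, measured 45.5, 47.6 and 49.4 TPM in P1 and 48.4, 36.8, 32.4, 37.6 and 30.9 TPM in P7, a log2 difference of -0.23 ± 0.17 (SE; adjusted p = 0.338, limma). Prc1 overlapped between ages and Kif20a did not. Ect2, which starts furrow ingression, fell by 0.72, while Kif23 (-0.38) and Anln (-0.18) did not pass. Foxm1, a transcription factor of mitotic genes, was at 16.6, 16.2 and 11.1 TPM in P1 and 13.9, 12.6, 11.5, 12.6 and 11.99 TPM in P7 (log2 difference -0.23 ± 0.17, SE; adjusted p = 0.331, limma). Mybl2, of the complex that acts with it, stood at 4.19, 3.04 and 3.62 TPM in P1 and 4.14, 4.31, 4.78, 4.98 and 5.14 TPM in P7, a log2 difference of 0.19 ± 0.16 (SE; adjusted p = 0.414, limma). Both overlapped, and Mybl2 was the 1 mitotic gene with a P7 mean above that of P1 (129%). The mitotic genes stood at P7 at a median of 67.6% of their P1 level, down to 48.5% (Ccnb2).

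**Figure D3:**
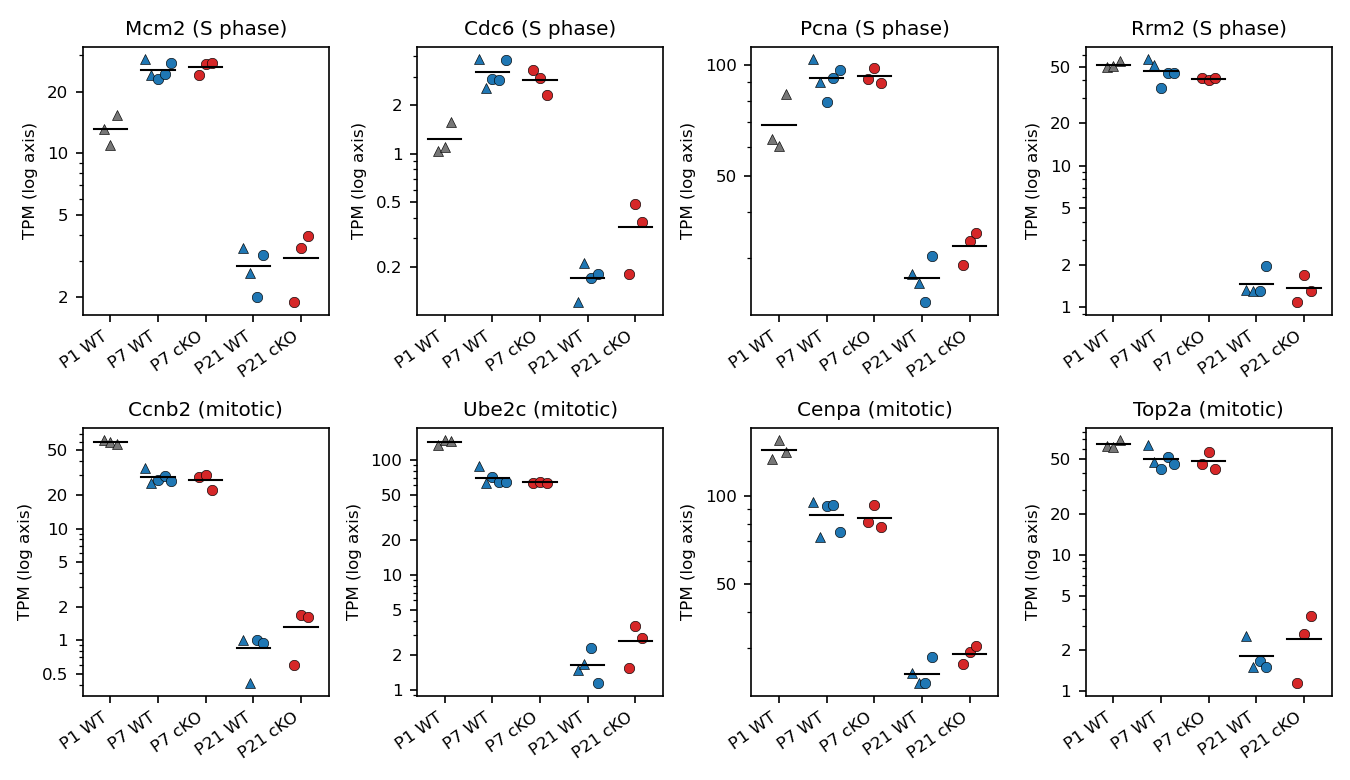
TPM per library (log axis) of 4 S phase genes (top) and 4 mitotic genes (bottom) in the 5 groups, with bars at the means; triangles are letter-coded titles and circles plain numbers. Mcm2 and Cdc6 are higher at P7 than at P1 in every library, Ccnb2, Ube2c and Cenpa lower, and all 8 genes are at their lowest at P21.

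Other genes of the same processes were read from 2 lists. Of 45 other replication genes 13 were higher at P7 than at P1 and 1 lower, with a median of 0.27, and of 52 other mitosis genes 14 were lower and 2 higher, with a median of -0.29. Of all genes 13.8% were higher and 14.7% lower, with a median of 0.00. Pola1, the catalytic subunit of DNA polymerase alpha, rose from 1.86 ± 0.35 to 3.94 ± 0.49 TPM (log2 difference 0.85, adjusted p = 0.000387, limma), and Timeless, of the fork protection complex, by 0.55. Dbf4, the activator of the origin-firing kinase Cdc7, was the replication gene that fell, from 16.5 ± 1.80 to 9.86 ± 1.08 TPM. Cdc25b and Cdc25c, phosphatases that switch on Cdk1, fell by 0.92 and 0.89, and Tacc3, a spindle protein, by 0.73. The mitosis genes that rose, named after their values were seen, were the condensin subunit Smc2 (0.33) and the checkpoint gene Kntc1 (0.52).

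Markers of other cell types also moved between these ages: of 6 markers each, 4 endothelial, 2 fibroblast, 3 mural and 4 macrophage markers were higher at P7, and 1 mural marker was lower. Of the 6 cardiomyocyte markers 1 was higher and 2 were lower. The cardiomyocyte sum ranged from 37588 to 41774 TPM at P1 and from 31150 to 37887 at P7. The endothelial sum ranged from 382 to 402 TPM at P1 and from 471 to 531 at P7, the fibroblast sum from 502 to 552 and from 567 to 772, the mural sum from 649 to 866 and from 601 to 845, and the macrophage sum from 32.2 to 34.4 and from 47.6 to 52.7. Lymphocyte markers summed to 0.21 to 0.86 TPM at P1, with Nkg7 at 0, and to 1.42 to 2.30 TPM at P7. Erythroid markers summed to 15.7 to 26.3 TPM and 29.03 to 44.6 TPM. Their part in the changes of the replication and mitosis genes was not tested.

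From P7 to P21 in WT hearts all 17 S phase genes and all 29 mitotic genes fell, and in each of the 46 all P21 libraries lay below all P7 libraries, as in 54.1% of all genes. Of all genes tested 64.4% were lower, with a median log2 difference of -0.47 against -2.57 for S phase genes and -3.44 for mitotic genes. As group means, S phase genes kept a median of 11.8% of the P7 level and mitotic genes 3.63%. Of the mitotic genes 8, and of the S phase genes 2, were under 1 TPM in all 7 P21 libraries, where log2(TPM + 1) compresses differences. All 46 also passed within letter-coded titles and within plain-number titles.

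Rrm2 measured 1.32, 1.31, 1.29 and 1.94 TPM in P21 WT (log2 difference -4.28 ± 0.12, SE; adjusted p = 8.14e-13, limma). It kept 3.13% of its P7 level, the least of the S phase genes. Tk1 was at 39.3, 31.4, 28.7, 34.01 and 32.9 TPM in P7 WT and 4.18, 3.87, 3.65 and 3.98 TPM in P21 WT, a log2 difference of -2.80 ± 0.10 (SE; adjusted p = 4.16e-12, limma). E2f1 stood at 0.59, 0.47, 0.52 and 0.51 TPM in P21 WT (log2 difference -2.71 ± 0.12, SE; adjusted p = 3.53e-11, limma). The clamp kept more: Pcna measured 27.2, 25.7, 22.8 and 30.5 TPM in P21 WT, a log2 difference of -1.77 ± 0.11 (SE; adjusted p = 1.18e-09, limma). It kept 28.7%, the most of the S phase genes. Mcm7 was at 7.31, 5.65, 5.14 and 6.45 TPM in P21 WT (log2 difference -2.29 ± 0.10, SE; adjusted p = 5.47e-11, limma). Mcm3 stood at 5.11, 3.16, 3.23 and 5.25 TPM in P21 WT, a log2 difference of -2.57 ± 0.19 (SE; adjusted p = 1.13e-08, limma). Mcm genes and their loaders kept between 5.33% (Cdc6) and 18.4% (Mcm7). Rrm1 measured 5.23, 5.35, 5.81 and 6.34 TPM in P21 WT (log2 difference -2.43 ± 0.12, SE; adjusted p = 1.71e-10, limma). Ccne2 was at 1.03, 1.75, 1.27 and 1.31 TPM in P21 WT, a log2 difference of -1.72 ± 0.15 (SE; adjusted p = 5.09e-08, limma). Ccne2 kept 20.1%, more than E2f1 (5.83%) and Ccne1 (10.6%).

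Bub1b stood at 19.6, 18, 13.1, 14.7 and 13.5 TPM in P7 WT and 0.84, 0.62, 0.58 and 0.61 TPM in P21 WT (log2 difference -3.35 ± 0.09, SE; adjusted p = 9.32e-13, limma). Cdc20 measured 1.36, 1.1, 0.74 and 0.98 TPM in P21 WT, a log2 difference of -4.15 ± 0.12 (SE; adjusted p = 1.14e-12, limma). Kif20a was at 0.75, 0.6, 0.64 and 0.46 TPM in P21 WT (log2 difference -3.54 ± 0.11, SE; adjusted p = 2.21e-12, limma). These had the smallest p of the mitotic genes. The APC/C enzyme had the steepest difference: Ube2c stood at 1.48, 1.68, 2.3 and 1.14 TPM in P21 WT, a log2 difference of -4.76 ± 0.16 (SE; adjusted p = 2.40e-12, limma). Ccnb1 kept 2.21%, the least of all 46 genes, and Knstrn, Ccna2, Ccnb2 and Cdc20 between 2.52% and 2.99%. Cdk1 measured 4.25, 1.77, 2.35 and 2.52 TPM in P21 WT (log2 difference -4.50 ± 0.16, SE; adjusted p = 6.03e-12, limma). Cks2 was at 2.42, 2.05, 1.05 and 2.16 TPM in P21 WT, a log2 difference of -4.41 ± 0.19 (SE; adjusted p = 2.72e-11, limma). Both were above 1 TPM in all 4 P21 libraries. Top2a stood at 2.52, 1.5, 1.66 and 1.5 TPM in P21 WT (log2 difference -4.23 ± 0.18, SE; adjusted p = 2.07e-11, limma). Knstrn measured 1.03, 0.83, 0.57 and 1.21 TPM in P21 WT, a log2 difference of -4.30 ± 0.16 (SE; adjusted p = 9.59e-12, limma). Tpx2 was at 0.86, 0.38, 0.47 and 0.54 TPM in P21 WT (log2 difference -3.58 ± 0.12, SE; adjusted p = 3.97e-12, limma). Tpx2 was under 1 TPM in all 4, and Knstrn in 2. Prc1 stood at 2.2, 1.02, 1.25 and 1.51 TPM in P21 WT, a log2 difference of -3.96 ± 0.14 (SE; adjusted p = 3.74e-12, limma). Foxm1 measured 0.44, 0.64, 0.88 and 0.86 TPM in P21 WT (log2 difference -2.99 ± 0.14, SE; adjusted p = 5.28e-11, limma). Mybl2 was at 0.22, 0.26, 0.56 and 0.28 TPM in P21 WT, a log2 difference of -2.08 ± 0.13 (SE; adjusted p = 1.71e-09, limma). Of these, Prc1 alone was above 1 TPM in all 4 libraries.

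Centromere genes differed among themselves. Cenpa stood at 24.6, 22.7, 22.8 and 27.98 TPM in P21 WT (log2 difference -1.75 ± 0.10, SE; adjusted p = 3.99e-10, limma). Cenpa thus kept 28.6% of its P7 level. Cenpf, a kinetochore protein, was at 10.3, 8.55, 4.78, 5.22 and 8.09 TPM in P7 WT and at 1.41, 3.40, 1.41 and 2.57 TPM in P21 WT, and kept 29.8%. The other mitotic genes kept between 2.21% (Ccnb1) and 7.98% (Kif23). Cenpa was at 22.7 TPM or more in every P21 WT library, where the next mitotic gene by mean, Cdk1, was at 2.72 ± 1.07 TPM (SD, n = 4).

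**Figure D4:**
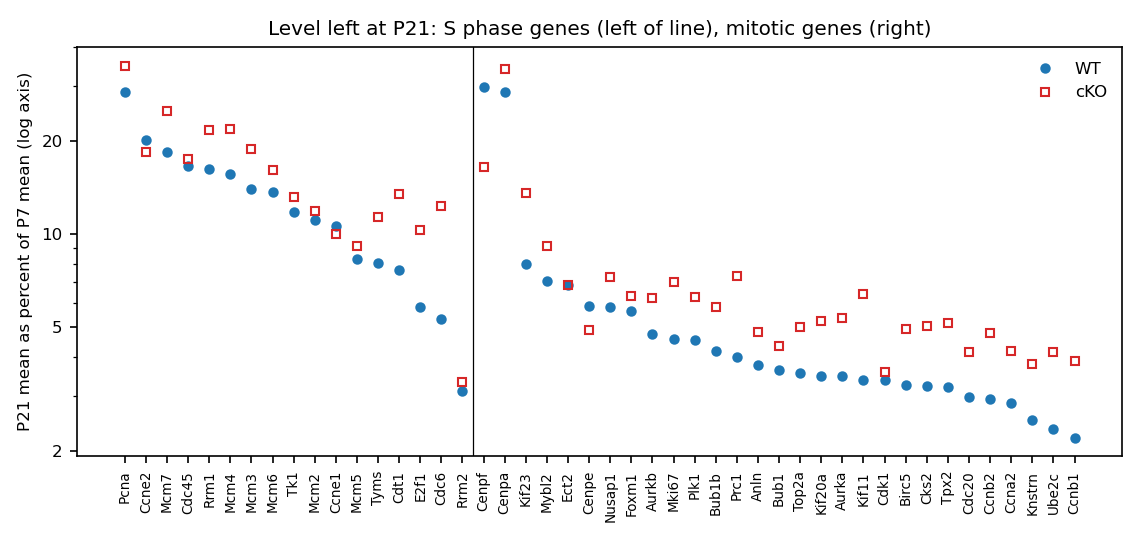
Mean level at P21 as a percentage of the mean at P7 (log axis) for each gene, in WT (filled circles) and cKO (open squares), ordered by the WT value within S phase genes (left of the line) and mitotic genes (right). In WT, S phase genes lie between 3.13% (Rrm2) and 28.7% (Pcna), and mitotic genes between 2.21% (Ccnb1) and 29.8% (Cenpf), with those other than Cenpf and Cenpa at or under 7.98%.

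Other replication genes fell in 45 of 45, with a median of -1.55, and other mitosis genes in 51 of 52, with a median of -2.55, where 64.4% of all genes were lower, with a median of -0.47. Dbf4 went from 9.86 ± 1.08 to 0.868 ± 0.24 TPM, Lig1, the ligase that joins replicated fragments, from 17.7 ± 1.53 to 2.01 ± 0.23 TPM, and Dnmt1, the maintenance DNA methyltransferase, from 24.2 ± 1.71 to 5.26 ± 0.79 TPM. The kinetochore gene Spc25 went from 26.5 ± 5.48 to 0.675 ± 0.20 TPM, and Hmmr and Ckap2l, of the spindle, from 13.1 ± 3.3 to 0.188 ± 0.08 and from 16.2 ± 4.34 to 0.440 ± 0.12 TPM. Pttg1, securin, was the 1 gene that rose, from 69.7 ± 1.37 to 103 ± 7.78 TPM (log2 difference 0.56, adjusted p = 1.87e-06, limma), and was named after its values were seen. Over the same ages 6 of 6 endothelial, 5 of 6 fibroblast and 3 of 6 mural markers were lower and 5 of 6 macrophage markers were higher. Of the 6 cardiomyocyte markers 3 were higher and 1 was lower, with sums from 34549 to 37654 TPM in P21 WT. Endothelial sums at P21 ranged from 215 to 292 TPM, fibroblast sums from 385 to 482, mural sums from 455 to 679 and macrophage sums from 80.0 to 117; their part in the fall was not tested.

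Against P1, all 46 genes were lower at P21 in WT, again with no overlap in any, where 57.1% of all genes were lower and 56.1% did not overlap. The median difference was -1.91 for S phase genes and -3.83 for mitotic genes, and -0.48 for all genes. Levels at P21 were a median of 15.6% of P1 for S phase genes, from 2.83% (Rrm2) to 39.9% (Ccne2), and 2.54% for mitotic genes, from 1.12% (Ccnb1) to 20.5% (Cenpf). The smallest p were those of Rrm2, Tk1 and Mcm7 (-4.36, -2.79 and -2.34) and of Bub1b, Cdc20 and Kif20a (-3.70, -4.85 and -4.26). Tk1 was at 33.6, 30.1 and 40.2 TPM in P1 WT. Bub1b was at 24.1, 24.3 and 20.1 TPM in P1 WT. This comparison shares the P1 and P21 libraries with those above. Of the other replication genes 43 of 45 were lower, and Orc4 of the origin recognition complex (-0.21) and Timeless (-0.14) did not pass.

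In cKO hearts all 46 genes also fell from P7 to P21 and none overlapped, where 39% of all genes were lower and 47.8% did not overlap. Median differences were -2.28 for S phase and -3.15 for mitotic genes, and -0.24 for all genes. Rrm2 measured 41.3, 40.1 and 41.4 TPM in P7 cKO and 1.08, 1.7 and 1.31 TPM in P21 cKO, a log2 difference of -4.16 ± 0.14 (SE; adjusted p = 5.17e-11, limma). Tk1 was at 30.6, 36.1 and 30.2 TPM in P7 cKO and 3.71, 4.77 and 4.23 TPM in P21 cKO (log2 difference -2.67 ± 0.12, SE; adjusted p = 2.67e-10, limma). E2f1 stood at 8.97, 8.75 and 9.52 TPM in P7 cKO and 0.56, 1.12 and 1.13 TPM in P21 cKO, a log2 difference of -2.39 ± 0.14 (SE; adjusted p = 4.61e-09, limma). All 3 kept between 3.33% and 13.1% of the P7 level. Bub1b measured 13.8, 14.9 and 12.4 TPM in P7 cKO and 0.61, 0.96 and 0.81 TPM in P21 cKO (log2 difference -3.03 ± 0.11, SE; adjusted p = 8.96e-11, limma). Cdc20 was at 37.8, 35.5 and 27.4 TPM in P7 cKO and 0.94, 1.4 and 1.87 TPM in P21 cKO, a log2 difference of -3.85 ± 0.15 (SE; adjusted p = 1.22e-10, limma). Ccna2, cyclin A2, stood at 35.1, 36.5 and 30.8 TPM in P7 cKO and 0.67, 1.89 and 1.73 TPM in P21 cKO (log2 difference -3.89 ± 0.17, SE; adjusted p = 1.96e-10, limma). The mitotic genes kept a median of 5.24% in cKO, from 3.59% (Cdk1) to 34.1% (Cenpa), and the S phase genes 13.4%. Of the other lists, 42 of 45 replication and 51 of 52 mitosis genes fell, and Pttg1 rose by 0.75. Orc4, Pold3 and Timeless did not pass.

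At P7, no S phase or mitotic gene differed between cKO and WT hearts (0 of 17 and 0 of 29, limma), and no member had an unadjusted p under 0.05, where 3.34% of all genes did. Of all genes 3 passed (0.0203%), all higher in cKO. The summed S phase level was 423 ± 22.0 TPM in cKO (SD, n = 3) and 426 ± 44.7 in WT, and the mitotic sum 748 ± 51.2 against 805 ± 117. Median differences were 0.04 and -0.05, and -0.02 over all genes. The 95% intervals of the 46 differences reached from -0.61 (Knstrn) to 0.63 (Cenpf). This does not show that the genotypes were alike.

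Mcm7 was at 29.6, 35 and 34.4 TPM in P7 cKO, a log2 difference from WT of 0.10 ± 0.12 (SE). Mcm3 was at 34.3, 35.4 and 28.7 TPM in P7 cKO, a log2 difference from WT of 0.11 ± 0.22 (SE). Pcna was at 91.6, 98.2 and 89.5 TPM in P7 cKO, a log2 difference from WT of 0.04 ± 0.12 (SE). Each lay within the range of the P7 WT libraries. Rrm1 was at 32.7, 38.6 and 34.5 TPM in P7 cKO, a log2 difference from WT of -0.01 ± 0.14 (SE). Ccne2 was at 5.58, 5.51 and 5.19 TPM in P7 cKO, a log2 difference from WT of -0.14 ± 0.17 (SE). Cdk1 was at 70.1, 81.03 and 72.6 TPM in P7 cKO, a log2 difference from WT of -0.05 ± 0.19 (SE). Rrm1 and Ccne2 stayed within the P7 WT range, and 2 of the 3 Cdk1 values lay just below it. Cks2 was at 52.9, 56.8 and 58.2 TPM in P7 cKO, a log2 difference from WT of 0.06 ± 0.22 (SE). Cenpa was at 81.4, 93.2 and 78.1 TPM in P7 cKO, a log2 difference from WT of -0.05 ± 0.11 (SE). Ube2c was at 63.5, 64.7 and 63.1 TPM in P7 cKO, a log2 difference from WT of -0.09 ± 0.18 (SE). The 3 Ube2c values all fell inside the WT range of 62.8 to 88.7 TPM. Top2a was at 45.95, 56.6 and 42.5 TPM in P7 cKO, a log2 difference from WT of 0.03 ± 0.20 (SE). Tpx2 was at 16.9, 18.6 and 15.4 TPM in P7 cKO, a log2 difference from WT of 0.02 ± 0.14 (SE). Prc1 was at 32.4, 35.5 and 30.6 TPM in P7 cKO, a log2 difference from WT of -0.07 ± 0.16 (SE). Prc1 reached slightly below its lowest WT library. Kif20a was at 15.9, 15.7 and 14.4 TPM in P7 cKO, a log2 difference from WT of -0.06 ± 0.13 (SE). Foxm1 was at 9.78, 12.2 and 14.6 TPM in P7 cKO, a log2 difference from WT of -0.07 ± 0.16 (SE). Mybl2 was at 5.37, 6.48 and 4.57 TPM in P7 cKO, a log2 difference from WT of 0.11 ± 0.15 (SE). Each overlapped WT. Knstrn was at 30.7, 28.3 and 27.9 TPM in P7 cKO, a log2 difference from WT of -0.21 ± 0.19 (SE). Knstrn was the 1 gene of 46 whose cKO libraries all lay below those of WT (31.5 to 46.5 TPM), where 2.73% of all genes did so, and its difference of -0.21 did not pass (adjusted p = 1, limma).

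At P21, few of the S phase and mitotic genes differed between genotypes. Of 17 S phase genes 1 was higher in cKO and of 29 mitotic genes 2, smaller shares than the 19.5% of all genes that were higher, and 0 were lower, where 1.77% of all genes were. With median-ratio scaling, with quantile normalization, without title style in the model or in plain-number titles alone, 0 of either list passed. Over all genes 1400, 1250 and 3048 of 14812 and 1535 of 14210 then passed in either direction, in that order. Without these alternatives, median differences were 0.26 and 0.25, and 0.22 over all genes, so relative to the median gene they were 0.05 and 0.03. But 2 S phase and 8 mitotic genes were under 1 TPM in every P21 library fitted, where log2(TPM + 1) compresses differences. The shares of the lists and of all genes are thus not compared at like levels. With a pseudocount of 0.1, 3 genes of each list were higher, and 3369 of 14812 genes passed in either direction. The medians were then 0.35 and 0.40, and 0.27 over all genes. The summed S phase level was 81.3 ± 15.3 TPM in cKO (SD, n = 3) and 65.4 ± 8.19 in WT (n = 4), and the mitotic sum 63.9 ± 15.6 against 52.0 ± 4.52, each with overlapping libraries. Mitotic sums were 0.78 ± 0.06 times the S phase sums in cKO and 0.80 ± 0.06 times in WT, and without Cenpa 0.42 ± 0.10 and 0.42 ± 0.05 times.

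Mcm7 was at 6.9, 9.16 and 8.68 TPM in P21 cKO and 7.31, 5.65, 5.14 and 6.45 TPM in P21 WT, a log2 difference of 0.51 ± 0.13 (SE; adjusted p = 0.0146, limma). P21 cKO 55 lay within the WT range, and the other 2 cKO libraries above it. Kif23, a kinesin of the midzone, stood at 1.82, 3.09 and 2.04 TPM in P21 cKO and 1.64, 1.66, 1.23 and 1.34 TPM in P21 WT (log2 difference 0.58 ± 0.17, SE; adjusted p = 0.0287, limma). It was the 1 member whose cKO libraries all lay above WT, where 28.5% of all genes did so. Prc1 measured 1.75, 2.44 and 3 TPM in P21 cKO and 2.2, 1.02, 1.25 and 1.51 TPM in P21 WT, a log2 difference of 0.56 ± 0.17 (SE; adjusted p = 0.0297, limma). P21 WT 2 exceeded the lowest cKO library. All 3 calls were lost after median-ratio scaling or quantile normalization of the libraries, with log2 differences of 0.28 for Mcm7, between 0.39 and 0.43 for Kif23 and between 0.38 and 0.40 for Prc1. They were lost too within plain-number titles and in a model without title style.

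The calls also rest on which cKO libraries are used. P21 cKO 55 had the lowest value of its group in 16 of 17 S phase genes and in all 29 mitotic genes. How often it was lowest over all genes was not counted. With P21 cKO 55 left out, 6 S phase and 11 mitotic genes passed, and 2857 of 14749 genes in either direction. The medians were then 0.44 and 0.43, and 0.23 over all genes. The lists' shares were then greater than that of all genes, unlike with all 18 libraries. Without P21 cKO 59, 0 and 0 passed, and 1658 of 14742 genes. Without P21 cKO 64 the counts were 0 and 1, without P21 WT 57 0 and 1, without P21 WT 60 3 S phase genes, and without P1 WT 3 2 S phase genes. Over all genes they were 1802 of 14763, 1469 of 14762, 5055 of 14767 and 4130 of 14714, in that order.

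**Figure D5:**
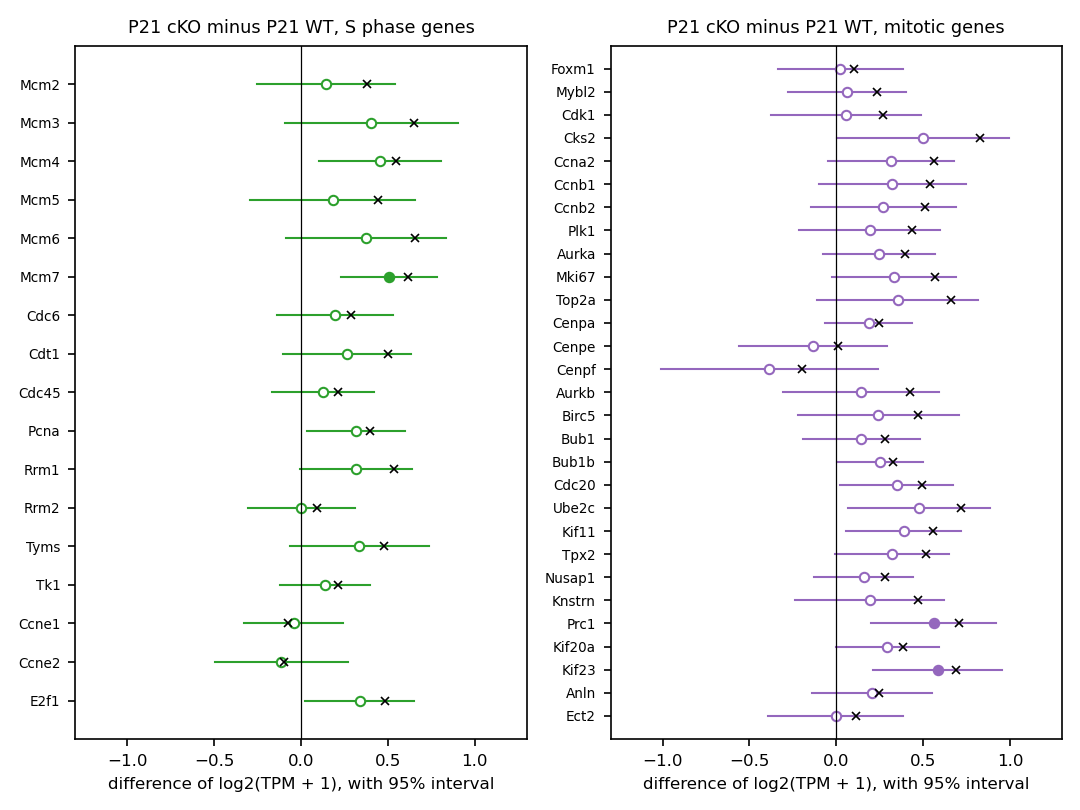
Difference of log2(TPM + 1) between P21 cKO and P21 WT for each S phase gene (left, green) and mitotic gene (right, purple), with 95% intervals; filled points (Mcm7, Prc1 and Kif23) passed at an adjusted p under 0.05. Crosses give the difference without P21 cKO 55, and lie to the right of the point in 16 of 17 S phase and all 29 mitotic genes.

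Reads can be shared with genes on the other strand, and whether counting used strand is not given in the sources used here. In the mm10 annotation, exons of Mcm7 (chromosome 5, 138164583 to 138172422) overlap those of Cops6 and Ap4m1, and exons of Prc1 (chromosome 7, 80294450 to 80316259) those of Rccd1, all on the opposite strand. Rccd1 was itself higher in P21 cKO, at 7.17, 5.75 and 9.90 TPM against 2.07, 3.10, 3.22 and 4.51 TPM in WT (log2 difference 1.07, adjusted p = 0.00873, limma), and Cops6 was at 73.8 against 69.9 TPM and Ap4m1 at 6.24 against 4.78 TPM as group means. The values of Mcm7 and Prc1 are uncertain on this account, and the part of these neighbours was not tested. Kif23 (chromosome 9, 61915905 to 61946774) has no such overlap. Of the 46 genes 12 share exon sequence with a gene on the opposite strand, among them Tk1, Cdc45, Ccne2, Ccna2, Cdc20, Kif20a, Nusap1, Ube2c and Knstrn.

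Of the members that did not pass, Ube2c was at 1.54, 3.59 and 2.84 TPM in P21 cKO, 0.48 ± 0.19 (SE) from WT on the log2 scale. Cks2 stood at 1.3, 3.05 and 4.14 TPM in P21 cKO, a log2 difference from WT of 0.50 ± 0.23 (SE). Pcna measured 28.7, 33.5 and 35.2 TPM in P21 cKO, 0.32 ± 0.13 (SE) from WT on the log2 scale. Each had its lowest cKO library inside the WT range. Unadjusted p were under 0.05 in 4 S phase genes (Mcm7, Mcm4, Pcna and E2f1) and 7 mitotic genes (Kif23, Prc1, Kif11, Ube2c, Cdc20, Cks2 and Bub1b), where 37.5% of all genes were under it. Cdk1 was at 1.68, 3.56 and 2.79 TPM in P21 cKO, a log2 difference from WT of 0.06 ± 0.20 (SE). Top2a stood at 1.14, 2.62 and 3.53 TPM in P21 cKO, 0.35 ± 0.22 (SE) from WT on the log2 scale. Cenpa measured 26.4, 29.2 and 30.6 TPM in P21 cKO, a log2 difference from WT of 0.19 ± 0.12 (SE). In these genes too the cKO range overlapped that of WT. Rrm1 was at 5.19, 9.48 and 8.14 TPM in P21 cKO, 0.32 ± 0.15 (SE) from WT on the log2 scale. Mcm3 stood at 3.91, 7.97 and 6.53 TPM in P21 cKO, a log2 difference from WT of 0.41 ± 0.23 (SE). Ccne2 measured 0.95, 1 and 1.03 TPM in P21 cKO, -0.11 ± 0.18 (SE) from WT on the log2 scale. Ccne2 and Ccne1 were the S phase genes with a negative difference. Knstrn was at 0.37, 1.87 and 1.06 TPM in P21 cKO, a log2 difference from WT of 0.19 ± 0.20 (SE). Tpx2 stood at 0.41, 1.11 and 1.11 TPM in P21 cKO, 0.32 ± 0.15 (SE) from WT on the log2 scale. Kif20a measured 0.59, 0.82 and 1 TPM in P21 cKO, a log2 difference from WT of 0.29 ± 0.14 (SE). P21 cKO 55 was the lowest of the 3 in each. Foxm1 was at 0.58, 0.7 and 1.03 TPM in P21 cKO, 0.02 ± 0.17 (SE) from WT on the log2 scale. Mybl2 stood at 0.16, 0.53 and 0.81 TPM in P21 cKO, a log2 difference from WT of 0.06 ± 0.16 (SE). The negative mitotic differences were those of Cenpf (-0.38), Cenpe (-0.13) and Ect2, the last close to 0.

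Markers of other cell types moved with genotype at P21: 5 of 6 endothelial, 6 of 6 fibroblast and 4 of 6 mural markers were higher in cKO, and 0 of 6 cardiomyocyte and 0 of 6 macrophage markers changed. Endothelial sums were 341 to 376 TPM in cKO and 215 to 292 in WT, fibroblast sums 562 to 658 and 385 to 482, mural sums 720 to 1004 and 455 to 679, and macrophage sums 75.3 to 106 and 80.0 to 117. Erythroid sums were 37.0 to 60.1 and 27.9 to 58.9 TPM, and lymphocyte sums 1.90 to 4.67 and 1.21 to 2.23 TPM. No marker was at 0 in all libraries of either group, and the part of these cells in the members' values was not tested.

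The genotype difference at P21 less that at P7 passed in 0 of the 46 genes (0 of 17 and 0 of 29, interaction contrast, limma). Of all genes 7.56% passed. Median values were 0.27 for S phase and 0.31 for mitotic genes, and 0.24 over all genes. The 95% intervals of the 46 genes reached from -1.22 (Cenpf) to 1.09 (Ube2c). This does not show that the genotype differences at the ages were alike. Unadjusted p were under 0.05 for Mcm7 and for Prc1, Kif23, Ube2c and Bub1b, 5 of 46 genes, and for 29.4% of all genes. The greatest value was that of Prc1, 0.63 ± 0.21 (SE, adjusted p = 0.0749, limma). Without P21 cKO 55, 2 S phase and 6 mitotic genes passed, and 1195 of 14749 genes in all. Without P21 WT 60, 1 of each list passed, and 3123 of 14767 genes in all.

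Among the other replication genes, Pold3, a subunit of DNA polymerase delta, stood far above WT in cKO at both ages. It was at 118, 98.9 and 126 TPM in P7 cKO and 148.8, 110.2 and 112 TPM in P21 cKO, against 9.15 to 15.3 TPM in P7 WT and 4.58 to 7.50 TPM in P21 WT. From P7 to P21 Pold3 fell in WT (log2 difference -1.04) and did not pass in cKO (0.10). P4ha3, on neither list, was also far higher in cKO, at 776 to 833 TPM in P7 cKO against 2.14 to 3.44 TPM in P7 WT. Why both were high in cKO was not tested. Pold3 was the 1 other replication gene that passed at P7 (0.0203% of all genes passed). At P21 8 of 45 passed, all higher, a share close to the 19.5% of all genes that were higher. Timeless was at 10.9 ± 0.55 TPM in P21 cKO and 6.70 ± 0.91 in P21 WT, and Gmnn, geminin, which blocks Cdt1, at 29.7 ± 3.29 and 20.1 ± 0.29 TPM. The genotype difference was greater at P21 than at P7 in 4 of the 45, where it differed in 7.56% of all genes: Pold3 (1.15), Timeless (0.70), Gmnn (0.63) and Gins4, of the GINS complex of the replicative helicase (0.42). Of 52 other mitosis genes 3 were higher in P21 cKO, where 19.5% of all genes were higher. They were the condensin genes Smc4 (0.44) and Smc2 (0.30) and Spc25 (0.55). For the change of the genotype difference between the ages, 0 of the 52 passed.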

How the data were processed

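RNA of 19 mouse heart libraries was measured, and the authors deposited 1 TPM value per gene and library; depth is not kept by this unit. Per the submitters' processing notes TopHat2 2.0.14 and Cufflinks 2.2.1 were used with mm10, and per the labels' protocols libraries were made with a SMARTer mRNA kit. The tool behind the TPM values and its annotation are not given in the sources used here. The table held 2 columns of no sample, which were not used.

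The members and lists were chosen with earlier results of these data known. Of the 19 libraries 18 were fitted together; P21 library 63 was left out because its labels disagree. The 14812 of 56066 genes that reached 1 TPM in 3 libraries or more were tested as log2(TPM + 1) with limma 3.58.1 (lmFit, eBayes with trend) in R 4.3.3, with group and title style in the model. P-values were adjusted by Benjamini-Hochberg over all genes of a comparison, with a threshold of 0.05. The step was run on simulated data with independent noise for each gene and library, and with changes added only to genes above a set mean level. Shifts of a whole library and changes in genes with low values were not simulated.

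Values per library are given for the 2 genes with the highest mean in each role and for up to 3 S phase and 3 mitotic genes with the smallest p among those that passed in a comparison. Of the 2 other lists, up to 3 genes per comparison with the smallest p are named, and Pold3, whose cKO level was known. Exon overlaps and positions are from GENCODE M21 on mm10. Alternatives were median-ratio scaling, quantile normalization, a pseudocount of 0.1, a filter of 5 TPM or none, a 2-fold threshold, no title style, 1 title style alone, a replicate block, and leaving out each library.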

Additional observations from a re-analysis of the deposited data

Results flagged for a closer look

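In groups of 4 or 5 libraries, single libraries stood apart from the rest by Dixon's test, which flags about 1 in 20 groups by chance; 96 groups were tested. P7 WT 1 had the highest level of Cks2 (82.4 TPM, next 55.6), Ccnb1 (33.7 TPM, next 23.9) and Cdc20 (45.1 TPM, next 32.5), and of the summed mitotic genes (1011 TPM, next 784). It was the highest P7 WT library in 28 of 29 mitotic and 12 of 17 S phase genes, and how often it was highest over all genes was not counted. In P21 WT, library 60 was highest for Rrm2 (1.94 TPM, next 1.32), library 2 for Tyms (2.05 TPM, next 1.26), Top2a (2.52 TPM, next 1.66) and Bub1b (0.84 TPM, next 0.62), and library 3 was lowest for Ccnb2 (0.41 TPM, next 0.95).

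P21 library 63, which entered no group, had an S phase sum of 83.3 TPM, above all P21 WT libraries (up to 72.9) and within the range of P21 cKO (up to 91.6). Its mitotic sum of 92.0 TPM was above all P21 WT (up to 56.7) and all P21 cKO libraries (up to 73.5).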

How the results depend on the processing

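The counts of genes lower at P21 than at P1 or P7, in WT and cKO, and of genes called at P7 between genotypes stayed within 1.5 times of the reported count under every alternative run. For P7 against P1, the mitotic genes that were lower numbered 7 with a pseudocount of 0.1 and 1 with a 2-fold threshold, and between 10 and 18 with 1 library left out. The S phase genes that were higher numbered 0 with a 2-fold threshold and 6 within letter-coded titles, and between 5 and 11 with 1 library left out. For P21 cKO against WT, median-ratio scaling, quantile normalization, a 2-fold threshold, no title style and plain-number titles alone each gave 0 S phase and 0 mitotic genes. A pseudocount of 0.1 gave 3 and a filter of 5 TPM 2 S phase genes, and no filter gave 0 mitotic genes. Leaving out 1 library gave 0 to 6 S phase and 0 to 11 mitotic genes, and for the difference between ages 0 to 2 and 0 to 6. Apart from the 2-fold threshold, fewer libraries and the number of genes tested, the cause was not tested. Of 2153 alternatives for single named genes 2087 kept direction and call, 66 lost the call and 0 reversed.

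Replicate numbers were shared by some WT libraries of different ages. Deviations of same-numbered libraries had correlations of -0.08, -0.10, 0.00, 0.02 and 0.07, and the libraries were not treated as pairs. Correlations of so few single pairs cannot show that the libraries are unrelated. With a replicate block 9 S phase genes were higher and 15 mitotic genes lower at P7 than at P1, and the counts at P21 between genotypes were 1 and 2. The within-style comparison of P21 with P7 in plain-number titles, and the count of S phase genes higher at P7, were added after seeing the data. Depth is unknown, and levels under 1 TPM limit what can be seen at P21.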

Other observations

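P21 library 63 exceeded all P21 WT libraries in 13 of 17 S phase and 25 of 29 mitotic genes, and all P21 WT and cKO libraries in 5 and 20. The same was not counted over all genes, so whether these shares are particular to the lists is unknown. Library 63 held Cdk1 at 9.62 TPM, Top2a at 5.78 TPM, Ube2c at 4.87 TPM and Mki67 at 2.72 TPM, where the highest of the other P21 libraries held 4.25, 3.53, 3.59 and 1.72 TPM. Its Mcm7, at 5.24 TPM, lay within the P21 WT range. P4ha3, at 542 to 575 TPM in P21 cKO and at most 0.30 TPM in P21 WT, was at 0.05 TPM in library 63.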
